A study of Homo sapiens with 4 samples.

Results

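Lysosomal enzymes and the lysosomal proton pump were followed here as 41 genes of the 61498 in the annotation, taken as a list of gene names that was drawn up with earlier results of these data known. They comprised 16 genes of the vacuolar H+-ATPase (V-ATPase), 8 proteases, 6 glycosidases and a lipase counted together, 3 soluble cofactors, 7 membrane proteins and the transcription factor TFEB. All 41 symbols were found in the tables. Poly(A) RNA was sequenced from K562, a human erythroleukaemia line, in 2 libraries of untreated cells and 2 libraries of cells kept with hemin at 50 µM for 108 h to induce erythroid differentiation. All 4 libraries came from this 1 line, and hemin was the only agent that distinguished the groups. Both groups are bulk cultures, so fewer cells of a kind and less RNA per cell cannot be told apart.

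Lysosomes digest proteins, sugars, lipids and nucleic acids that reach them by endocytosis and autophagy, and erythroid precursors use this route to clear organelles as they mature. The V-ATPase acidifies the lumen: its membrane-embedded V0 sector passes protons, driven by ATP hydrolysis in the peripheral V1 sector. Most lysosomal hydrolases need the acid pH, and TFEB, a basic helix-loop-helix factor held in the cytoplasm when nutrients are plentiful, activates many lysosomal genes through a short E-box-like element in their promoters.

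The expected counts summed to between 7455447 and 8241534 per library. The members took 0.433% to 0.454% of them, and their summed TPM (transcript abundance scaled by length and depth) were 3811 and 3844 in the untreated libraries and 3714 and 3691 in the hemin libraries. The summed TPM of 12 erythroid markers was 6741 and 6919 in untreated cells and 8825 and 8290 with hemin. Of 10 macrophage markers, 6 had at most 3 counts summed over the 4 libraries, CSF1R, CD163 and MRC1 among them. The summed TPM of the 10 was 12.1 and 11.6 without hemin and 8.99 and 6.6 with it. Of 6 granulocyte markers, 4 (MPO, ELANE, S100A8 and S100A9) had at most 3 counts summed over the 4 libraries. The summed TPM of the list was 3.84 and 4.33 without hemin and 1.06 and 1.48 with it. The 7 megakaryocyte markers summed to 13.3 to 16.1 TPM and the 6 lymphocyte markers to 0.54 to 3.82 TPM. The part of these lists in the results below was not tested.

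After 108 h with hemin the members did not move as 1 block. Of the 16 proton pump members ATP6V0A1, ATP6V0C, ATP6V0D1 and ATP6V1C1 rose and none fell, whereas TCIRG1, a pump isoform outside the members, fell. Among the 16 soluble enzymes and cofactors tested, CTSZ, CTSB, CTSC, GAA and GRN fell and CTSL rose. Of the pump members 25.0% were called higher and 0% lower by edgeR, and of the soluble ones 6.25% and 31.2%. The shares over all tested genes were 7.00% and 7.14%. CLN3, a lysosomal membrane protein whose loss causes juvenile neuronal ceroid lipofuscinosis, showed the largest rise of any member, to 1.69-fold. The other changes were small, with folds between 0.678 (GAA) and 1.33 (ATP6V1C1). Only the calls on CLN3, ATP6V1C1, CTSZ and GAA among the members held in every alternative based on counts. DESeq2 did not call ATP6V0C, ATP6V0D1, TCIRG1, CTSL or GRN, and the call on GRN was also lost with RLE factors.

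In numbers, 6 of the 40 tested members (15%) were called higher and 5 (12.5%) lower by edgeR's quasi-likelihood test at a Benjamini-Hochberg adjusted p under 0.05. Over all 14458 tested genes the shares were 7.00% and 7.14%, or 14.1% in either direction. Members are read more deeply than most genes. Of the 39 members with a mean of at least 100 counts 11 (28.2%) were called, against 19.5% of the 8986 genes of that depth, of which 10.7% were called higher and 8.82% lower. The median log2 fold change of the members was 0.01, against -0.0048 over all genes tested. In TMM-scaled CPM (counts divided by the library's scaled total), both hemin libraries lay above both untreated libraries for 15 members and below both for 10. With 2 libraries a group this is common, and 28.1% and 29.3% of all tested genes did so. The 29 members that were not called had log2 fold changes between -0.25 and 0.22, and 5 of them (ATP6V1G1, CTSA, NEU1, PSAP and LAMP1) had an unadjusted p under 0.05 in the same edgeR test. LIPA, the lysosomal acid lipase, had 2 and 1 counts without hemin and 1 and 1 with it, and was too sparse to test.

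**Figure D1:**
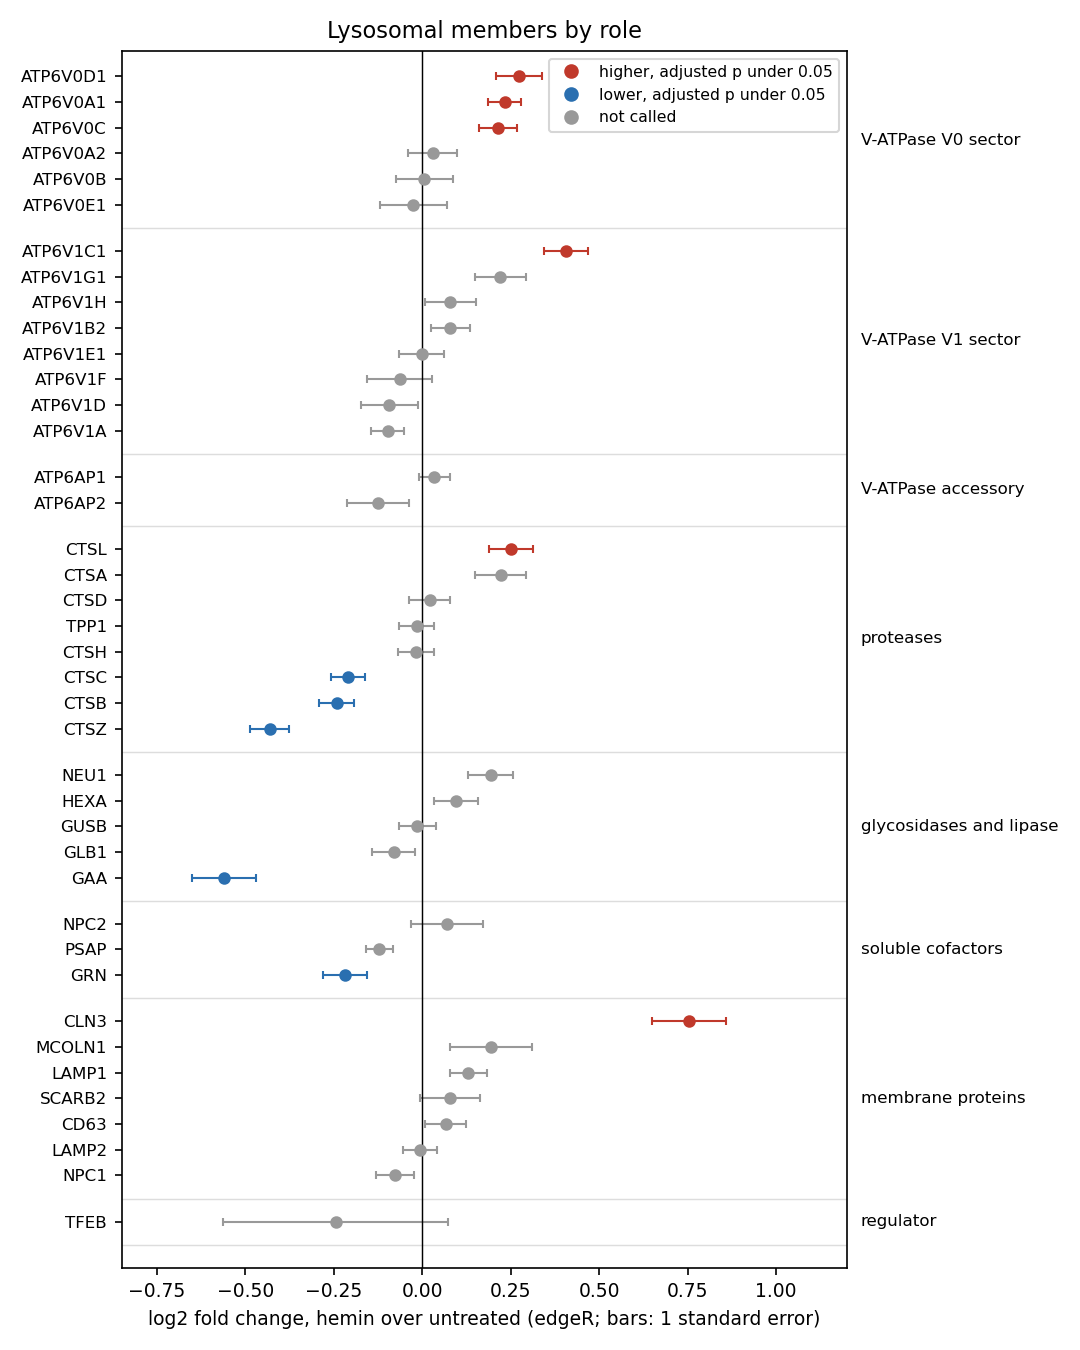
Log2 fold change (hemin over untreated, x axis) of the 40 tested members, with 1 standard error from edgeR as the bar, grouped by role. The 6 members called higher are red, the 5 called lower are blue and the 29 not called are grey; CLN3 lies farthest right at 0.75 and GAA farthest left at -0.56.

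The V0 sector held 3 of the 6 members called higher. These were 50% of its own 6 members, against 7.00% of all tested genes called higher. ATP6V0A1, the a1 isoform of the large subunit that carries the proton half-channels, stood at 168 and 160 CPM in the untreated libraries and at 190 and 196 CPM with hemin. Its log2 fold change was 0.23 ± 0.05 (SE; edgeR adjusted p = 0.0121). ATP6V0D1, the d subunit that couples the sectors, read 58.7 and 60.9 CPM without hemin and 74.4 and 70.2 CPM with it, a log2 fold change of 0.27 ± 0.06 (SE; edgeR adjusted p = 0.0236). ATP6V0C encodes the c subunit of the proteolipid ring that turns in the membrane. It rose from 123 and 128 CPM to 140 and 151 CPM, with a log2 fold change of 0.22 ± 0.05 (SE; edgeR adjusted p = 0.0277). In each of these genes the higher untreated library lay below the lower hemin library. The remaining V0 members, ATP6V0A2, ATP6V0B and ATP6V0E1, had log2 fold changes between -0.03 and 0.03, and their groups overlapped. DESeq2 called ATP6V0A1 but neither ATP6V0D1 (DESeq2 adjusted p = 0.0828) nor ATP6V0C (0.0557). The call on ATP6V0A1 was lost without untreated replicate 2 (edgeR adjusted p = 0.0669). ATP6V0D1 missed the threshold without untreated replicate 1 (0.111), untreated replicate 2 (0.0646) or hemin replicate 1 (0.088), and ATP6V0C without untreated replicate 1 (0.132), untreated replicate 2 (0.0703) or hemin replicate 2 (0.154), all as edgeR adjusted p.

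In the V1 sector 1 of 8 members (12.5%) was called, near the 14.1% of all tested genes. ATP6V1C1, the C subunit that sits between the stator stalks and is released when the sectors come apart, went from 75.2 and 83.7 CPM in untreated cells to 105 and 105 CPM with hemin. Its log2 fold change was 0.41 ± 0.06 (SE; edgeR adjusted p = 0.00395), the largest of the pump, and the call held with each library left out in turn (edgeR adjusted p between 0.00132 and 0.0286). ATP6V1G1, a stalk subunit, moved from 74.2 and 85.5 CPM to 91.7 and 94.1 CPM and lay just outside the threshold (log2 fold change 0.22 ± 0.07 SE, edgeR adjusted p = 0.0693). The catalytic subunit ATP6V1A had the lowest value of the sector, from 174 and 182 CPM to 165 and 168 CPM, a log2 fold change of -0.10 ± 0.05 (SE; edgeR adjusted p = 0.19). ATP6V1B2, which shares the catalytic head with it, had 97.6 and 105 CPM without hemin and 105 and 108 CPM with hemin, a log2 fold change of 0.08 ± 0.06 (SE). ATP6V1D, ATP6V1E1, ATP6V1F and ATP6V1H ranged from -0.09 to 0.08 on the log2 scale. Neither accessory subunit was called, with log2 fold changes of 0.03 ± 0.04 (SE) for ATP6AP1 and -0.13 ± 0.09 (SE) for ATP6AP2.

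**Figure D2:**
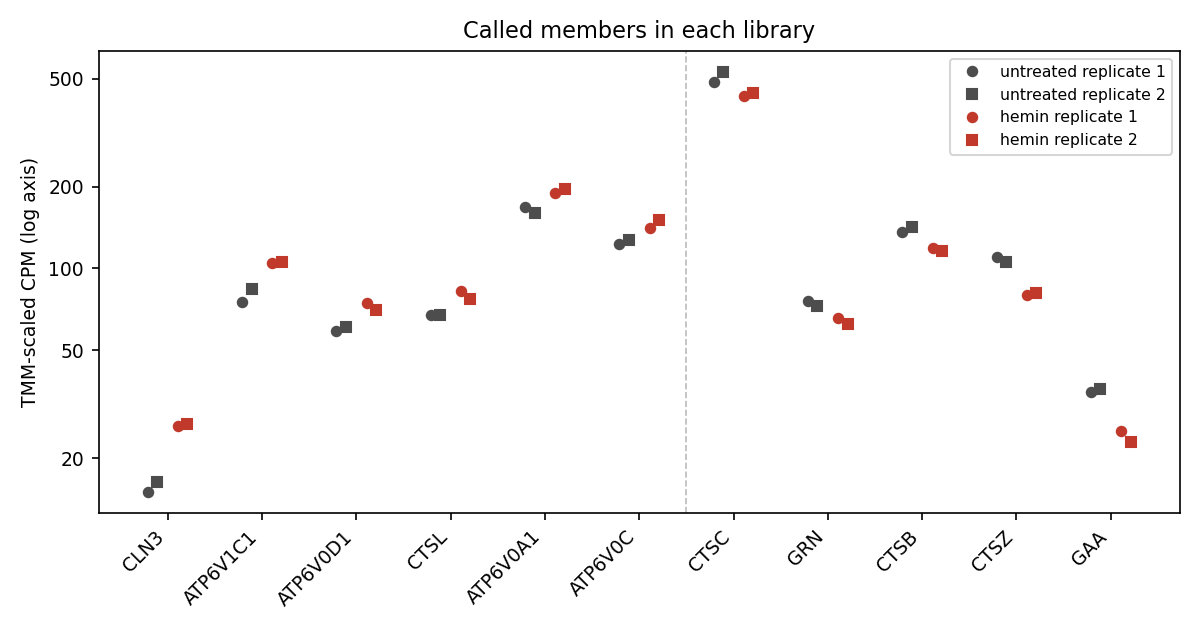
TMM-scaled CPM (log axis) of the 11 called members in each of the 4 libraries, untreated in grey and hemin in red, circles for replicate 1 and squares for replicate 2. To the left of the dashed line both hemin libraries lie above both untreated ones, with CLN3 the widest gap (15.0 and 16.3 against 26.2 and 26.6 CPM), and to the right both lie below.

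Several V-ATPase subunits are encoded by more than 1 gene, and the isoforms differ in where they are used. TPM, which is scaled by transcript length, was used to set them side by side. K562 cells transcribed the ubiquitous forms: ATP6V0D2, ATP6V1B1, ATP6V0A4 and ATP6V1G3, which are known from osteoclasts, kidney and epididymis, were each at or under 0.54 TPM in every library. For the C, E and G subunits the ubiquitous gene supplied 95.5% to 99.4% of the summed TPM in each library, and for the e subunit ATP6V0E1 supplied 79.9% to 83.5%. The a subunit was mixed. ATP6V0A1 made up 54.7% and 51% of the summed a-subunit TPM in untreated cells and 61.2% and 62.2% with hemin. TCIRG1, the a3 isoform of lysosomes and of the osteoclast ruffled border, made up 31.2% and 34.1% without hemin and 25% and 24.6% with it. ATP6V0A2 stayed between 13.2% and 14.9%. The shares of a1 and of a3 did not overlap between the groups. They are parts of 1 sum, so they are not separate observations. In CPM 28.1% of all tested genes lay apart with hemin higher and 29.3% with hemin lower. By limma on log2(TPM + 1) or log2(TPM + 0.1) neither ATP6V0A1 nor TCIRG1 was called. The level of TCIRG1 was 47.5 and 51.4 TPM in untreated cells and 37.9 and 38.2 TPM with hemin, and its log2 fold change from counts was -0.33 ± 0.09 (SE; edgeR adjusted p = 0.0349). That call was lost without untreated replicate 2 (edgeR adjusted p = 0.187) and without hemin replicate 2 (0.0982).

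**Figure D3:**
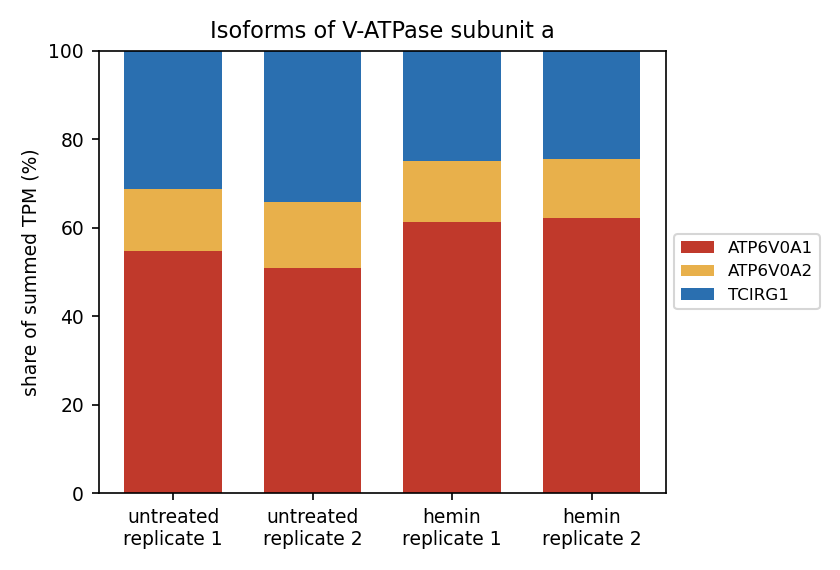
Share (%) of the summed TPM of the a-subunit genes taken by ATP6V0A1, ATP6V0A2 and TCIRG1 in each library. The ATP6V0A1 share is 51% to 54.7% in the untreated bars and 61.2% to 62.2% in the hemin bars, and the TCIRG1 share is lower in both hemin bars.

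Across the pump the levels were uneven. In untreated and hemin libraries alike ATP6V0C had the highest TPM of the 16 genes, with a mean of 183 TPM over the 4 libraries and its product is present in several copies per ring. ATP6V1F, ATP6V1G1, ATP6V1E1 and ATP6V0B followed at 151, 144, 140 and 137 TPM, and their libraries overlapped one another. ATP6V0A2 was lowest in every library, at 20.6 to 22.4 TPM. In untreated cells ATP6V1C1 came next at 33 and 35.1 TPM, below ATP6AP2 at 41.9 and 46.4 TPM. With hemin the order turned, with ATP6V1C1 at 40.8 and 42.1 TPM and ATP6AP2 at 39.3 and 39.8 TPM.

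**Figure D4:**
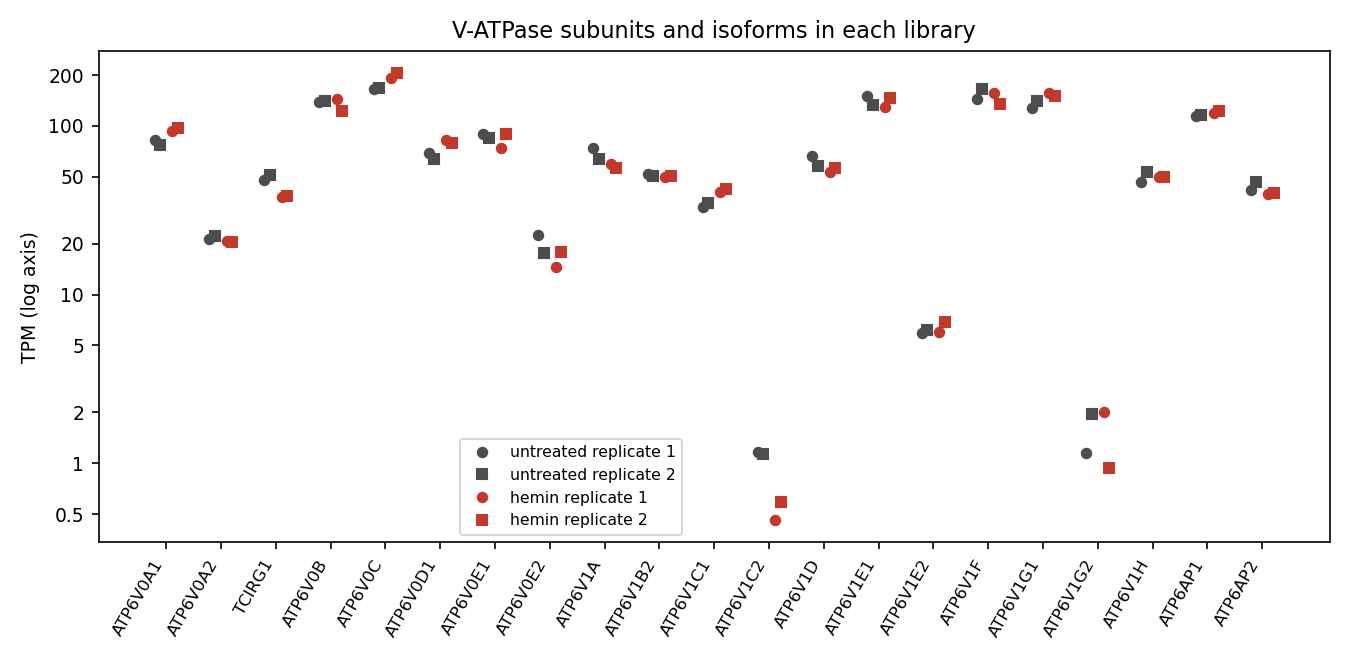
TPM (log axis) of V-ATPase subunits, accessory proteins and their isoforms in the 4 libraries, untreated in grey and hemin in red. The alternative isoforms ATP6V1C2, ATP6V1E2 and ATP6V1G2 lie far below their ubiquitous partners; genes at 0 in a library are not drawn.

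Among the 8 proteases 3 fell (37.5%) and 1 rose (12.5%), against 7.14% and 7.00% of all tested genes. CTSZ (ENSG00000101160, chr20:58985686-59008238 on the minus strand of GRCh38), the carboxypeptidase cathepsin Z, fell furthest, from 110.5 and 105.8 CPM in untreated cells to 79.6 and 80.8 CPM with hemin. Its log2 fold change was -0.43 ± 0.05 (SE; edgeR adjusted p = 0.00145) and the call held with any library left out (edgeR adjusted p between 0.00104 and 0.0146). CTSZ shares 9448 bases of its locus with NELFCD on the opposite strand, and the library kit does not mark strand. NELFCD had 1230 and 1167 counts without hemin and 1126 and 1276 with it, so its own groups overlapped. CTSB, cathepsin B, an endopeptidase that also trims C termini, went from 136 and 142 CPM to 119 and 116 CPM (log2 fold change -0.24 ± 0.05 SE, edgeR adjusted p = 0.0139). CTSC, the dipeptidyl peptidase that activates granule serine proteases, had the most transcripts of any protease here, with a mean of 466 ± 22.1 TPM (SD, n = 2) without hemin and 357 ± 0.0636 TPM (SD, n = 2) with it. In CPM it went from 486 and 530 to 433 and 444, a log2 fold change of -0.21 ± 0.05 (SE; edgeR adjusted p = 0.0214). The groups were apart in all of these genes. Without untreated replicate 2, CTSB and CTSC missed the threshold, at log2 fold changes of -0.20 and -0.14 and edgeR adjusted p values of 0.0816 and 0.116.

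CTSL, the endopeptidase cathepsin L, moved the other way, from 67.1 and 67.2 CPM in the untreated libraries to 82.7 and 77.3 CPM with hemin (log2 fold change 0.25 ± 0.06 SE, edgeR adjusted p = 0.0273). Its call was lost without untreated replicate 1 (edgeR adjusted p = 0.102), untreated replicate 2 (0.0964) or hemin replicate 1 (0.118), with scaling by library size only (edgeR adjusted p = 0.0519) and by DESeq2 (adjusted p = 0.0965). CTSA, which protects beta-galactosidase and neuraminidase in a complex, had 44.1 and 42.6 CPM without hemin and 51.2 and 50 CPM with it, and was not called (log2 fold change 0.22 ± 0.07 SE, edgeR adjusted p = 0.07). The aspartic protease CTSD, the aminopeptidase CTSH and the tripeptidyl peptidase TPP1 had log2 fold changes of 0.02, -0.02 and -0.02, each smaller than its SE of 0.05 or 0.06.

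Of the 5 glycosidases tested only GAA was called (20%, against 14.1% of all tested genes). GAA, acid alpha-glucosidase, degrades lysosomal glycogen and is lost in Pompe disease. The gene (ENSG00000171298) lies at chr17:80101533-80119881 on the plus strand of GRCh38. It was read by 278 and 268 counts in untreated cells and by 187 and 185 counts with hemin, or 35.1 and 35.8 CPM against 25.2 and 22.9 CPM. The log2 fold change of -0.56 ± 0.09 (SE; edgeR adjusted p = 0.00467) was the lowest of all members and held with each library left out (edgeR adjusted p between 0.0014 and 0.0319). NEU1, the sialidase of the CTSA complex, had 58.7 and 57.2 CPM without hemin and 65.3 and 67.2 CPM with it and was not called (log2 fold change 0.19 ± 0.06 SE, edgeR adjusted p = 0.0726). The third enzyme of that complex, the beta-galactosidase GLB1, had a log2 fold change of -0.08 ± 0.06 (SE). HEXA and GUSB, which remove hexosamine and glucuronic acid, stood at 0.10 ± 0.06 and -0.01 ± 0.05 (log2 fold change, SE).

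Of the soluble cofactors PSAP was the most abundant. PSAP, the precursor of the saposins that present sphingolipids to their hydrolases, had a mean of 464 ± 0.877 TPM (SD, n = 2) without hemin and 422 ± 0.488 TPM (SD, n = 2) with it. In CPM it had 668 and 673 against 606 and 626, with a log2 fold change of -0.12 ± 0.04 (SE) that lay just outside the threshold (edgeR adjusted p = 0.0679). GRN, progranulin, which is cut into granulins in the lysosome, lay just inside it, with 75.7 and 72.9 CPM in untreated cells and 65.7 and 62.2 CPM with hemin (log2 fold change -0.22 ± 0.06 SE, edgeR adjusted p = 0.0484). The GRN call was lost with any 1 library left out, at edgeR adjusted p values between 0.0689 (without hemin replicate 1) and 0.223 (without hemin replicate 2). It was also lost with RLE factors (edgeR adjusted p = 0.0506), with no count filter (0.0562) and by DESeq2 (adjusted p = 0.222). NPC2, which carries cholesterol to NPC1, had 24 and 27.6 CPM without hemin and 27.9 and 26.3 CPM with hemin, and its groups overlapped.

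Of the 7 membrane proteins only CLN3 was called (14.3%, near the 14.1% of all tested genes). CLN3 had the largest change of all members. CLN3 (ENSG00000188603) lies at chr16:28474111-28495575 on the minus strand of GRCh38. It was read by 119 and 122 counts without hemin and by 194 and 215 counts with hemin. Its log2 fold change was 0.75 ± 0.11 (SE; edgeR adjusted p = 0.00237), or 0.70 to 0.81 with each library left out (edgeR adjusted p between 0.00102 and 0.0198). The mean level rose from 17.7 ± 1.27 TPM (SD, n = 2) to 26.9 ± 1.46 TPM (SD, n = 2). The locus also holds a read-through gene on the same strand, to which 2.74 to 7.3 counts per library were assigned, and the SD that RSEM gives for dividing shared reads was 4.3% of the CLN3 count. LAMP1, a heavily glycosylated protein of the limiting membrane, had 93.7 and 92 CPM without hemin and 102 and 101 CPM with it (log2 fold change 0.13 ± 0.05 SE, edgeR adjusted p = 0.128). Its relative LAMP2 had 215 and 217 CPM against 207 and 223 CPM, with overlapping groups and a log2 fold change of -0.01 ± 0.05 (SE). The calcium channel MCOLN1 stood at 0.19 ± 0.12 and the cholesterol exporter NPC1, the lowest of the role, at -0.08 ± 0.05 (log2 fold change, SE). CD63, a tetraspanin, and SCARB2, the receptor that delivers glucocerebrosidase, stood at 0.07 ± 0.06 and 0.08 ± 0.09 (log2 fold change, SE).

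TFEB itself was scarce. It had 46.3 and 26 counts in untreated cells and 25 and 36 counts with hemin, or 3.71 and 2.66 TPM against 2.33 and 2.6 TPM. The groups overlapped in counts, and the log2 fold change of -0.25 ± 0.32 (SE; edgeR adjusted p = 0.667) had an error larger than itself, so a change of moderate size was not detectable at this depth. Its relatives TFE3 and MITF had means of 13.6 and 11.9 TPM over the 4 libraries, and TFEC had no count. Only LIPA was lower than TFEB among the members. Next came MCOLN1 and SCARB2 in untreated cells, at means of 14.8 and 14.9 TPM. With hemin the order of means was GAA (15 TPM), MCOLN1 (16.1 TPM) and SCARB2 (16.3 TPM). In each group the libraries of the genes named overlapped one another. CTSC and PSAP were the highest in both groups and CD63 the third. The untreated libraries of CTSC lay on either side of those of PSAP, whereas with hemin PSAP was above CTSC in both libraries.

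The element through which TFEB acts has the core TCACGTG. It was searched on both strands of windows of 300 bases, from 250 before an annotated transcript start of the gene, taken from RefSeq on GRCh38.p14. Where a gene has several annotated starts a match in any of their windows was counted, and for GLB1, SCARB2 and TFEB no window lay at the RefSeq gene start itself. These windows were found for 32 of the 41 members and not for ATP6V0E1, ATP6V1A, ATP6V1B2, ATP6V1C1, ATP6V1H, CTSB, HEXA, PSAP and LAMP2. The core was present in 10 of the 32 (31.2%), against 1226 of 27305 genes with such a window (4.49%). The shorter E-box CACGTG, which the core contains, was present in 11 members (34.4%) and in 8.77% of all genes. The core was found in 2 of 5 members called higher, 1 of 4 called lower and 7 of 23 not called. A match is a run of letters and not a measured binding site. The element is known from promoters of lysosomal genes, so its share in a list of such genes is not a result of these libraries.

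**Figure D5:**
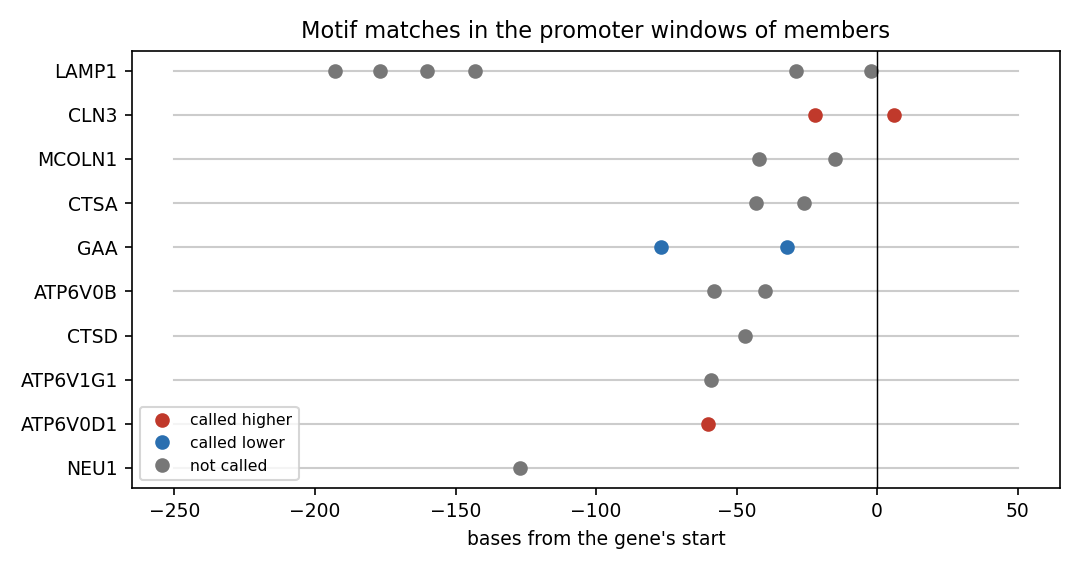
Position of each match to the core, in bases from the gene's start (x axis, 0 is the start and negative values lie before it), in the 10 members that hold one. Overlapping matches of both strands are drawn as 1 point; LAMP1 holds 6, and red, blue and grey stand for members called higher, called lower and not called.

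The called members with a match are printed here from 200 bases before the start to 30 bases from it, together with LAMP1, which has the most matches. Letters of the core, on either strand, are in capitals, and each stretch reads 5′ to 3′ on the strand of its gene. CLN3 lies on the minus strand (chr16:28492053-28492282), ATP6V0D1 on the minus strand (chr16:67481128-67481357), GAA on the plus strand (chr17:80101381-80101610) and LAMP1 on the plus strand (chr13:113297039-113297268), all on GRCh38.p14.
CLN3: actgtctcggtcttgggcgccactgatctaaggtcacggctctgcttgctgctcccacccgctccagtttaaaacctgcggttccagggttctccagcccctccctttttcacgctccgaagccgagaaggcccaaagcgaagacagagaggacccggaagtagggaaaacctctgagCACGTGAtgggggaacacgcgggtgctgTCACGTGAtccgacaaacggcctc
ATP6V0D1: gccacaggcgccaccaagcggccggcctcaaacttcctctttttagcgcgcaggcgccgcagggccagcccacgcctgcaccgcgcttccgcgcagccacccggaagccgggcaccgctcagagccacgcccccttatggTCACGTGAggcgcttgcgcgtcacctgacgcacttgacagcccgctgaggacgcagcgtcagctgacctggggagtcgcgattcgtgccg
GAA: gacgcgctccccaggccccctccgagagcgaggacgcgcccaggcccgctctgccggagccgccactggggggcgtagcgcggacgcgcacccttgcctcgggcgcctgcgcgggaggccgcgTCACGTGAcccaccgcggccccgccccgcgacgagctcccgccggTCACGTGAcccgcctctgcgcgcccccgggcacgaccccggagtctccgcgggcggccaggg
LAMP1: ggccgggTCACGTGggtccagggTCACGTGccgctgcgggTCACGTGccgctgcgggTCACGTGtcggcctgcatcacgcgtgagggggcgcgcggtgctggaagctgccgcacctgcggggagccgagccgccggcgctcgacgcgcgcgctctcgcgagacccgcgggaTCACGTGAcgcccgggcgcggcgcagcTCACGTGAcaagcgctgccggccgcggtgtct

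CLN3, which rose, and GAA, which fell, each carry a pair of matches within 100 bases of the start. The starts are those of RefSeq, and that of CLN3 lies inside the GENCODE locus given above (chr16:28474111-28495575), not at its end. In CLN3 these begin 22 bases before the start and 6 bases after it, and in GAA 77 and 32 bases before it. ATP6V0D1 has 1 match, 60 bases before the start. In LAMP1, which was not called, 4 of the 6 matches lie between 193 and 143 bases before the start.

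Further lysosomal genes were read from 6 lists in which 139 genes were found, of which 126 were tested. Of these, 7 (5.56%) were called higher and 14 (11.1%) lower, against 7.00% and 7.14% of all tested genes. In either direction 16.7% were called, against 14.1% of all tested genes, and the median log2 fold change was -0.08. Among the 46 further hydrolases and cofactors tested 1 rose (2.17%) and 6 fell (13.0%), and the 15.2% called were near the share over all genes. Of the 46, 34 had a log2 fold change below 0, with a median of -0.15 against -0.0048 over all genes tested. PLD3, an exonuclease of lysosomal nucleic acids, fell from 190 and 195 CPM to 131 and 133 CPM (log2 fold change -0.54 ± 0.05 SE, edgeR adjusted p = 2.4e-04). DNASE2, which degrades the DNA of expelled erythroid nuclei within macrophages, stood at 79.8 and 81.2 CPM against 64 and 61.9 CPM (log2 fold change -0.36 ± 0.06 SE, edgeR adjusted p = 0.00561). The exception was ACP5, the tartrate-resistant acid phosphatase, which rose from 32.5 and 29.2 CPM to 49.9 and 54.4 CPM (log2 fold change 0.76 ± 0.09 SE, edgeR adjusted p = 9.1e-04). The alpha-mannosidase MAN2B1 was called at -0.29 ± 0.07 (log2 fold change, SE; edgeR adjusted p = 0.0255), but not without untreated replicate 1 (0.0644), untreated replicate 2 (0.128) or hemin replicate 1 (0.127).

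Among 34 further membrane proteins tested, 3 rose and 3 fell (17.6% called, against 14.1% of all tested genes), with a median log2 fold change of -0.11. CLCN7, the chloride-proton exchanger that works beside the pump, rose from 136 and 130 CPM to 165 and 164 CPM (log2 fold change 0.30 ± 0.05 SE, edgeR adjusted p = 0.00398). LAPTM4B fell from 655 and 664 CPM to 524 and 515 CPM (log2 fold change -0.34 ± 0.04 SE, edgeR adjusted p = 7.7e-04). The ion channel TMEM63A and the nucleic acid transporter SIDT2 fell by 0.42 and 0.43 on the log2 scale (edgeR adjusted p = 0.00382 and 0.0145), and SIDT2 missed the threshold without untreated replicate 1, untreated replicate 2 or hemin replicate 1 (edgeR adjusted p = 0.0613, 0.0746 and 0.0531). In TPM the groups of SIDT2 overlapped, with 17.8 and 20.6 TPM without hemin and 18.1 and 18.6 TPM with it, and limma on log2(TPM + 1) gave a log2 fold change of -0.061 (adjusted p = 0.856).

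Of 10 tested genes that assemble or regulate the V-ATPase, 1 was called higher (10%) and 3 lower (30%), against 7.00% and 7.14% of all tested genes. TMEM199, an assembly factor of the V0 sector, rose from 19.6 and 19.8 CPM to 27.5 and 26.4 CPM (log2 fold change 0.45 ± 0.10 SE, edgeR adjusted p = 0.0152). DMXL2, a subunit of the complex that rejoins V1 with V0, and TMEM9 and NCOA7, which bind the pump, fell by 0.21, 0.37 and 0.36 on the log2 scale (edgeR adjusted p = 0.0118, 0.0165 and 0.0184). Each of the 4 calls was lost with some library left out (edgeR adjusted p). Without untreated replicate 1 the value was 0.0699 for TMEM199, 0.059 for DMXL2 and 0.0613 for NCOA7, and without untreated replicate 2 it was 0.0627 for TMEM199, 0.102 for TMEM9 and 0.0949 for NCOA7. NCOA7 was lost without hemin replicate 1 too, at 0.0793.

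In the 5 tested V-ATPase genes outside the members, which include the ATP6AP1 relative ATP6AP1L, the only call was that on TCIRG1, which fell. That is 20% called, against 14.1% of all tested genes. The log2 fold changes of all 5 were below 0, from -1.04 for ATP6V1C2, at 7.54 to 20.1 counts, to -0.0096 for ATP6V1E2. Their median was -0.33. For 3 of them both hemin libraries lay below both untreated ones in CPM, as they did for 29.3% of all tested genes. Of 10 tested sorting genes, which include the mannose 6-phosphate receptors, LRP1 was the only 1 called (10%, against 14.1% of all tested genes). LRP1, an endocytic receptor that takes up ligands at the cell surface, had 176 and 167 counts in untreated cells and 69 and 67 counts with hemin, a log2 fold change of -1.34 ± 0.13 (SE; edgeR adjusted p = 4.5e-04). In TPM it had 3.12 and 5.35 without hemin and 2.92 and 1.8 with it, and limma gave -0.63 on log2(TPM + 1) (adjusted p = 0.33) and -0.81 on log2(TPM + 0.1) (adjusted p = 0.345). In the 21 tested genes of the TFEB family and its nutrient switch, 2 were called (9.52%, against 14.1% of all tested genes). The median log2 fold change was 0.12. YWHAB, a 14-3-3 protein, and RPTOR, the mTORC1 scaffold, rose by 0.22 on the log2 scale each (edgeR adjusted p = 0.0198 and 0.0355). YWHAB missed the threshold without untreated replicate 1 (edgeR adjusted p = 0.112) or hemin replicate 2 (0.0616), and RPTOR without untreated replicate 1 (0.108), untreated replicate 2 (0.128) or hemin replicate 2 (0.195).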

How the data were processed

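The data were 4 poly(A) RNA-seq libraries of K562 cells, 2 per group, sequenced with reads of 50 bases. The authors trimmed them with Trimmomatic 0.39 and quantified each library with RSEM 1.3.1, run with STAR, on the Ensembl 106 annotation of GRCh38. The expected counts deposited by the authors are unnormalized read numbers per gene, in which reads matching several genes are split. The TPM deposited by the authors are scaled by effective length and depth. The gene symbols were read from the authors' tables of mean TPM, whose values were not used, and FPKM were not used.

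Rounded counts that passed edgeR's filterByExpr were scaled by TMM. The test was that of edgeR 4.0.16 (quasi-likelihood, hemin against untreated, Benjamini-Hochberg adjustment over all 14458 tested genes, threshold 0.05) in R 4.3.3. Scripts were tested on simulated data. The alternatives tried were DESeq2 1.42.0, RLE or no size factors, other count filters, a block for the replicate number, leaving out single libraries, limma 3.58.1 on log2(TPM + 1) and log2(TPM + 0.1), and posterior mean counts. The authors' RSEM run gave posterior mean counts and their SD from repeated sampling of how shared reads divide.

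The members and lists were chosen with earlier results of these data known. Every member is accounted for. Values in every library were given for called members and the extremes of each role and level, and up to 4 called genes were named per list, in order of p. Of 140 listed symbols VMA22 was not found, being a newer name of CCDC115, which was listed too. The sources do not say whether the libraries of a group came from separate cultures, so p-values measure only the spread between these libraries. Within a group the libraries differed by more than counting noise, with a mean chi-square per tested gene of 1.83 untreated and 2.22 with hemin. The kit does not mark strand, so reads from bases that genes on opposite strands share cannot be told apart by strand. Promoter windows came from RefSeq on GRCh38.p14. Gene coordinates are from GENCODE 44.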

Additional observations from a re-analysis of the deposited data

How the results depend on the processing

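Of 143 values for the 11 called members under 13 alternatives, 97 kept direction and call, 46 kept the direction only and 0 changed direction. CLN3, ATP6V1C1, CTSZ and GAA stayed called in every alternative based on counts. Members called higher numbered 6, but 3 by DESeq2 and 3 to 5 with 1 library left out. Members called lower numbered 5, and 2 to 4 with 1 library left out. The lowest counts were reached without untreated replicate 1 (3 higher) and untreated replicate 2 (3 higher, 2 lower). By limma on log2(TPM + 1) and on log2(TPM + 0.1), 0 members were called either way (6 higher and 7 lower at an unadjusted p under 0.05 in each), where 47 and 49 of all tested genes were called. On those scales the log2 fold change differed from that of counts by over 1.5 times, among the called genes named, for CTSC (-0.38 against -0.21), LRP1 and SIDT2. The cause was not tested. DESeq2 did not call ATP6V0C, ATP6V0D1, CTSL or GRN. The members' median stayed between -0.03 and 0.05, less than the spread between libraries from its main value.

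In the further lists the 7 genes called higher became 3 by DESeq2, 12 with at least 20 counts, 4 with the replicate block, 11 with posterior mean counts, 0 by limma with either pseudocount (6 and 5 at an unadjusted p under 0.05) and 3 to 6 with 1 library left out. The 14 called lower became 22 with library size only, 8 by DESeq2, 23 with posterior mean counts, 1 by limma with either pseudocount and 7 to 12 with 1 library left out. Of the 29 members that were not called, 17 changed direction in at least 1 alternative (14 on counts, 9 by limma on TPM), to at most 0.18 in size, and 0 of these values of the other sign were called. Among the extremes of each role and TFEB these were ATP6AP1 (-0.0044 with library size only), ATP6V0E1 (-0.15 to 0.090), NPC2 (-0.030 to 0.18) and TFEB (-0.56 to 0.18), the last 3 with 1 library left out. These are log2 fold changes.

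Replicate numbers are shared only as numbers: the deviations of same-numbered libraries correlated at 0.00473 over 14458 genes. With the replicate block 6 members were called higher and 4 lower, GRN being lost (adjusted p = 0.0591 by edgeR). A library left alone in its group is assumed to vary like the others.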

Other observations

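In 9 of the 40 tested members the mean TPM moved the other way than the log2 fold change from counts, and none of the 9 was called. TPM depends on the effective length that RSEM assigns to a gene in each library, whereas the counts do not, and TPM is not scaled by TMM. With library size only, the median log2 fold change over all tested genes was -0.0434, against -0.0048 in the main fit. Why the 9 moved the other way was not tested. GLB1 had means of 81.5 TPM without hemin and 86.5 TPM with it, against a log2 fold change of -0.08 from counts. TMPPE, which lies within the GLB1 locus on the same strand, had 41.9 and 43.3 counts without hemin and 73.9 and 62.6 with it. Its part in the GLB1 values was not tested. TPP1 had means of 56.3 and 61 TPM, against a log2 fold change of -0.02 from counts.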
